A study of Schmidtea mediterranea with 5 samples.

Results

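Neurons of the planarian *Schmidtea mediterranea* were examined here at single-cell resolution in fragments of the body taken around a wound behind the pharynx. A cell barcode was kept when it held 200 to 2500 genes and 600 or more unique molecular identifiers (UMIs, each of which tags 1 captured RNA molecule). A kept cell was called a neuron when dd_Smed_v6_1566_0 was detected together with at least 2 of 13 further contigs, and when dd_Smed_v6_332_0, dd_Smed_v6_61_0 and dd_Smed_v6_69_0, which mark early epidermal progenitors, together made up under 1% of its UMIs. Of 25447 cells, 786 met this rule (3.09%). The rule is built on measured transcripts, so the levels of its own contigs are given below as a description without a test. A contig is an assembled transcript sequence, and it carries here the name of the human protein that the study's annotation matched to it. A pair of the study's lists give different human names for some contigs, so each name is a label for the contig rather than a settled identity, and a role given below is that of the human protein.

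The planarian nervous system consists of a bilobed brain and ventral nerve cords with many transcriptionally distinct neuron types. Neurons signal to each other at synapses, where a presynaptic cell loads a transmitter into vesicles, vesicle and active zone proteins control its release, and receptors on the receiving cell open ion channels or signal through G proteins. Neuropeptides are released from dense-core vesicles and act on G protein-coupled receptors, and some sensory neurons carry cilia on which stimuli are received.

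All 5 libraries came from strain CIW4. Cells of pooled animals were sorted for the X-insensitive gate (cells outside the radiation-sensitive gate of dividing cells) and loaded on the 10x v3 platform. The groups were post-pharyngeal wound fragments at 0 hours post amputation (0 hpa, 1 library), anterior-facing fragments at 6 hpa (1 library), anterior-facing fragments at 18 hpa (2 libraries) and posterior-facing fragments at 18 hpa (1 library). The time of 18 hpa is that of the labels, and the study's methods give an earlier hour for these libraries, which could not be settled here. Replicate 2 of the 18 hpa anterior group had been fed unc-22 dsRNA, a control for RNAi, and the other 4 libraries had no RNAi. The study's single-cell methods mention 4 feedings for this replicate only. Whether a cut 7 days after the last of 4 liver feedings holds for every library could not be settled here. The 6 hpa library was sorted as calcein medium and high and the others as propidium iodide low, so time and sort cannot be told apart at 6 hpa. The libraries held 21746895 to 37981205 UMIs each, and no neuron barcode was shared between libraries. Neurons had a median of 2495 UMIs, against 3470 for the other 24661 cells.

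The contigs that chose the neurons covered transmitter loading, vesicle release and reception. The marker dd_Smed_v6_1566_0 was at 976 CPM (UMI counts scaled to the same total in every group) in neurons and 40.8 CPM in other cells, and 349 of 786 neurons (44.4%) were admitted with 1 UMI of it. The most frequent further contig was GLRA2 (dd_Smed_v6_10794_0), a glycine receptor subunit, which was found in 52.0% of neurons. For each share of cells with a UMI, the share in the 7401 cells that exceeded the epidermal limit (median 4794 UMIs) served as the background. It was 0.162% for GLRA2, at a greater depth than that of the neurons. This background is low for most contigs of the rule. Among all cells not called neurons, which include the epidermal cells, the share for GLRA2 was 3.13%. In barcodes of few UMIs, which hold mostly free RNA, GLRA2 was at 13.9 CPM, against 0.349 CPM in the epidermal cells.

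SLC17A6 (dd_Smed_v6_10192_0), which loads glutamate into vesicles, was found in 42.2% of neurons and 0.797% of the epidermal cells. The vesicle fusion protein VAMP2 (dd_Smed_v6_10790_0) was found in 33.5% and 1.35%, and the active zone protein RIMS2 (dd_Smed_v6_10734_0) in 32.7% and 0.338%. The rule selected on these contigs, so their shares in neurons are a description of the class. GABRB2 (dd_Smed_v6_10171_0), a GABA receptor subunit, was found in 24.3% and 0.676%. CHRNB3 (dd_Smed_v6_10322_0), a nicotinic acetylcholine receptor subunit, was found in 24.2% and 0.27%, and the unnamed dd_Smed_v6_6208_0 in 21.9% and 0.176%. For the glycine transporter SLC6A5 (dd_Smed_v6_10458_0) the shares were 15.1% and 2.91%. Among all cells not called neurons, the shares were 2.83% for SLC17A6, 3.37% for VAMP2, 2.51% for RIMS2 and 3.63% for GABRB2. They were 1.57% for CHRNB3 and 1.41% for dd_Smed_v6_6208_0. All of these exceeded the epidermal shares, while that of SLC6A5 was lower at 1.94%.

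The remaining contigs of the rule admitted few neurons. SVOP (dd_Smed_v6_10613_0), a transporter-like protein of synaptic vesicles, was found in 11.1% of neurons but in 26.5% of the epidermal cells. CACNA2D3 (dd_Smed_v6_10409_0), a calcium channel subunit, was found in 2 neurons (0.254%) and in 1.99% of the epidermal cells. Among all cells not called neurons, SVOP was found in 12.5% and CACNA2D3 in 0.888%. Without this pair, 43 neurons (5.47%) would not have met the rule. NETO2 (dd_Smed_v6_10760_0) and GRM3 (dd_Smed_v6_10130_0), both linked to glutamate receptors, had 11 and 4 UMIs in all neurons. PTPRN (dd_Smed_v6_10524_0), a dense-core vesicle protein and 1 of the 3 markers given for the class, had 0 UMIs in 786 neurons, and 41 UMIs in other cells (0.47 CPM). The count of 0 allows a share of cells with a UMI of up to 0.382% and sets no limit on the share that expressed it. No neuron was thus admitted through PTPRN.

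**Figure D1:**
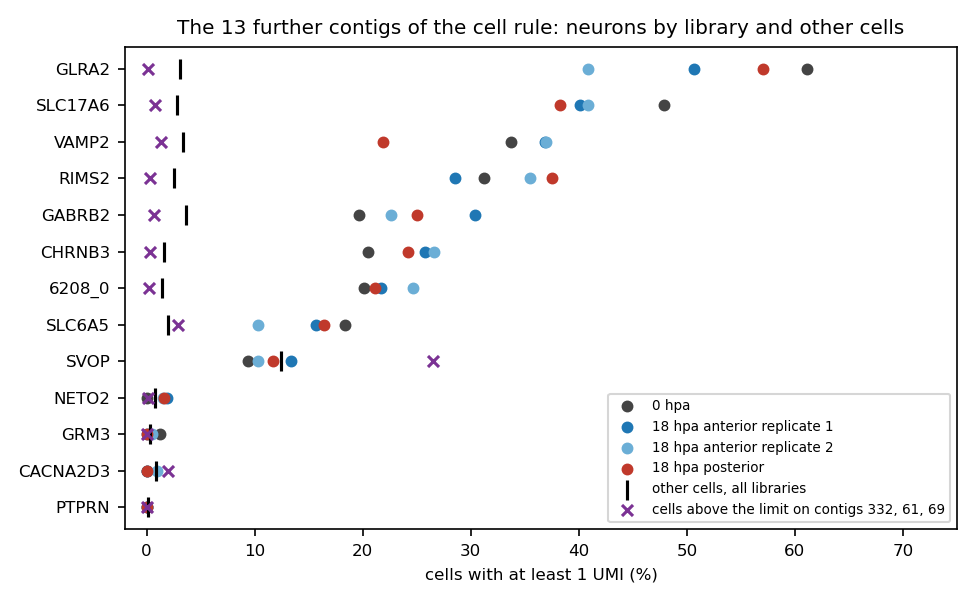
Share of cells with at least 1 UMI (x axis, %) for each of the 13 further contigs of the rule (y axis). Coloured points are the neurons of 4 libraries (the 4 neurons at 6 hpa are not drawn), bars are all other cells and crosses are the cells above the epidermal limit. GLRA2 and SLC17A6 lead in every library drawn, and SVOP is the contig whose cross lies well to the right of the neurons.

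Neurons combined these contigs in many ways. GLRA2 and SLC17A6 were detected together in 174 neurons, and this was the most frequent pair. VAMP2 and GLRA2 were found together in 117 neurons, and RIMS2 and GLRA2 in 114. Most neurons lay at the edge of the rule, since 462 (58.8%) had exactly 2 further contigs, 215 had 3, 81 had 4, 25 had 5 and 3 had 6. Just inside the edge, the neurons with 2 further contigs held 299 CPM of a list of 14 receptor and transmitter-enzyme contigs that the rule did not use, and those with 3 or more held 405 CPM. Just outside it and under the epidermal limit, cells with dd_Smed_v6_1566_0 and 1 further contig held 199 CPM. Those with dd_Smed_v6_1566_0 and at most 1 further contig, which include the former, held 132 CPM. The level in all cells that were not neurons was 49.6 CPM. These are pooled levels of each set of cells, and the distribution over single cells was not examined. A further 226 cells met the marker rule but held more than 2500 genes and were left out. Doublets were not called.

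Neurons made up 2.62 to 5.04% of cells in 4 of the libraries and almost none at 6 hpa. At 0 hpa, 234 of 5316 cells were neurons (4.40%, exact 95% binomial interval 3.87 to 4.99). At 18 hpa, the anterior libraries held 217 of 4305 (5.04%, 4.41 to 5.74) and 203 of 7244 (2.80%, 2.43 to 3.21), and the posterior library 128 of 4882 (2.62%, 2.19 to 3.11). The intervals of the 18 hpa anterior replicates did not overlap, so libraries of 1 group spanned most of the range of these 4. This gap depended on the setting. Among cells under 10% mitochondrial UMIs the replicates were at 7.44% (6.48 to 8.50) and 7.37% (6.31 to 8.54). With each cell thinned to 600 UMIs they were at 0.488 and 0.580%, again with intervals that overlapped. At 6 hpa, 4 of 3700 cells were neurons (0.108%, 0.0295 to 0.277), and this library was lowest under each of the 7 other settings of the rule. The order of the other 4 changed with the setting, and no share was tested between groups. Intervals cover counting error only. A lower share of cells called neurons cannot be told apart from less RNA per neuron, and median depth among all other cells was 1726 UMIs at 6 hpa and 3586 to 4004 elsewhere.

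**Figure D2:**
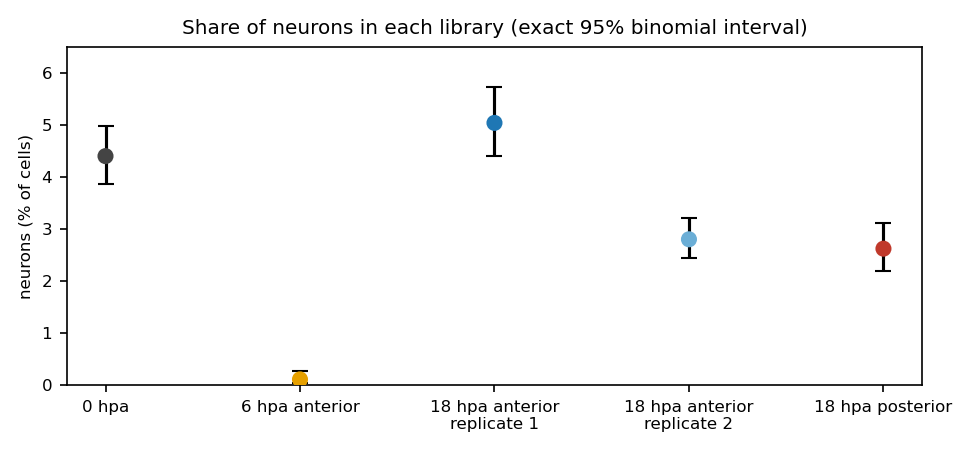
Share of cells that met the neuron rule (y axis, %) in each library (x axis), with exact 95% binomial intervals. The 6 hpa library sits at 0.108%, below the 2.62 to 5.04% of the others, and the 18 hpa anterior replicates do not overlap.

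The 4 cells at 6 hpa gave few UMIs and stood apart from the other neurons. Together they held 12894 UMIs, so that 1 UMI was worth 77.6 CPM. Of the 12 contigs chosen for the largest fold changes in the other libraries, they held 2 UMIs, or 155 CPM, against 7.19 CPM in other cells at 6 hpa and 1287 to 2085 CPM in the neurons that chose them. They held 1241 CPM (16 UMIs) of dd_Smed_v6_659_0, a contig listed for neoblast-like cells, against 122 to 262 CPM in the neurons elsewhere. The list of 3 contigs of other classes that includes it was at 1351 CPM in other cells at 6 hpa. Among the broadly detected neuron contigs, dd_Smed_v6_2164_0 was at 155 CPM (2 UMIs) at 6 hpa and at 2126 to 2785 CPM in the other libraries, and dd_Smed_v6_6859_0 was at 77.6 CPM (1 UMI) and at 1049 to 1347 CPM. Other cells at 6 hpa held 144 and 18.9 CPM of this pair. Whether the 4 cells are neurons was not tested. By the rule of a 3-fold difference from each other library, with Poisson intervals that did not overlap, 14 of 5224 contigs (0.268%) were higher at 6 hpa and 25 (0.479%) were lower. The largest amount was in dd_Smed_v6_7_0, at 227548 CPM against 28061 to 37820 CPM. The same contig was at 110377 CPM in all other cells at 6 hpa and at 34274 to 46987 CPM in those of the remaining libraries. Results below are given with and without these cells where they change.

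Against all other cells, neurons differed at a large part of the transcriptome. UMIs were summed per library over neurons and over other cells and compared within libraries by edgeR's quasi-likelihood test, with contigs of the rule left out of all counts. Of 15171 contigs, 4100 (27.0%) were higher in neurons and 5297 (34.9%) were lower at an adjusted p under 0.05. The same cells gave the rule and the test, so contigs detected together with the rule's contigs were favoured, and these percentages are the background for every list below. The balance of directions depended on scaling. Calls in the higher direction were 43.6% of all calls here, 59.3% with RLE size factors (5014 or 33.0% of contigs higher, 3441 or 22.7% lower) and 64.3% with DESeq2 (4364 or 28.8% higher, 2425 or 16.0% lower), and the median over all contigs moved from -0.22 to 0.14 with RLE, a shift of 0.36 on the log2 scale. All 4100 contigs called higher were also called higher with RLE, and 3441 of the 5297 called lower stayed lower, with none turned. Against other cells matched in UMIs, 3007 of 10376 contigs (29.0%) were higher and 2927 (28.2%) lower, and without 6 hpa 4051 (24.2%) were higher and 5474 (32.7%) lower. The median of -0.22 was not subtracted from the log2 fold changes below, which are to be read against it.

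The contigs named by rule for the largest fold changes had no annotated name. The 12 that led among contigs higher in 5 of 5 libraries had log2 fold changes from 4.35 to 5.43. The most abundant was dd_Smed_v6_1483_0, with 5723 CPM at 0 hpa, 2296 and 1835 CPM in the 18 hpa anterior libraries, 1965 CPM at the posterior wound and 77.6 CPM (1 UMI) at 6 hpa. In other cells it averaged 71.6 CPM, and its log2 fold change was 4.80 (SE 0.28). It was found in 18.2% of neurons, so its level was carried by a minority of them. The contig dd_Smed_v6_1440_0 was broader, with UMIs in 65.4% of neurons. It was at 1393, 917, 1034 and 905 CPM in the libraries other than 6 hpa, at 155 CPM (2 UMIs) at 6 hpa and at 33.3 CPM in other cells (log2 fold change 4.43, SE 0.25).

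Contigs of few neurons mostly led the ranking when 6 hpa was left out. The requirement of the same direction in 5 of 5 libraries meant at least 1 UMI in the 4 cells at 6 hpa. Without that library only dd_Smed_v6_6756_0 and dd_Smed_v6_1545_0 remained among the leading 12, and dd_Smed_v6_5762_0 came first with a log2 fold change of 6.57. It was at 79.5, 67.6, 46.6 and 60.8 CPM in the neurons of the 4 libraries, in the order 0 hpa, 18 hpa anterior replicates 1 and 2 and posterior, and at 0.447 CPM in all other cells. UMIs of it came from 21 neurons, and those of dd_Smed_v6_1588_0, at 226 CPM in neurons and 2.24 CPM elsewhere, from 7 neurons.

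At the other end, the 6 contigs with the lowest fold change had 0 UMIs in neurons. Set against a floor of 3 UMIs over all neurons, dd_Smed_v6_11575_0 was at least 35.1-fold lower than in other cells (48.6 CPM), and the other 5 were at least 22.4-fold to 32.6-fold lower. Among contigs that neurons did contain, chosen after their values were seen, dd_Smed_v6_3_0 was at 340 CPM in neurons and 8114 CPM in other cells (log2 fold change -5.09, SE 0.28). Its neuron values ran from 184 to 543 CPM over the libraries and its values in other cells from 4148 to 9104 CPM, so the groups did not overlap.

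Contigs of reception and transmitter breakdown were among the clearest. Of 14 in the list, 4 had enough UMIs to be tested, 3 were higher and 1 lower, with a median log2 fold change of 2.89, and 10 were too sparse. NPY2R (dd_Smed_v6_10020_0), a neuropeptide receptor, was at 229 CPM at 0 hpa, 179 and 109 CPM in the 18 hpa anterior libraries, 193 CPM at the posterior wound and 77.6 CPM (1 UMI) at 6 hpa. Every one of these values exceeded those of other cells, which ran from 17.7 to 41.4 CPM (log2 fold change 1.79, SE 0.20, adjusted p = 1.65e-18 by edgeR). The galanin receptor GALR2 (dd_Smed_v6_10325_0) was at 57.7, 36.7, 62.1 and 74.1 CPM in the libraries other than 6 hpa and had 0 UMIs at 6 hpa. Other cells stayed at 0.514 to 3.4 CPM, and the log2 fold change was 4.23 (SE 0.32). BCHE (dd_Smed_v6_10334_0), a cholinesterase that breaks down choline esters, was even over those 4 libraries at 107.5, 113, 111 and 101 CPM, with 0 UMIs at 6 hpa and at most 5.78 CPM in other cells (log2 fold change 4.00, SE 0.23). GRIA4 (dd_Smed_v6_10048_0), an ionotropic glutamate receptor subunit, was lower, with 2 UMIs in neurons and 611 in other cells.

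Ion channels showed no common direction. Of 8 tested, 2 were higher, 3 lower and 3 not called, with a median of -0.19 that became 0.17 with RLE size factors. CACNA1C (dd_Smed_v6_10156_0), the pore subunit of a voltage-gated calcium channel, was at 45.5 to 66.6 CPM in the libraries other than 6 hpa and at 10.5 to 22.5 CPM in other cells (log2 fold change 1.37, SE 0.24). ATP2B2 (dd_Smed_v6_10674_0), a plasma membrane calcium pump, was also higher at 3.33 (SE 0.58), from 18 UMIs in neurons. The potassium channel contigs KCNN2 (dd_Smed_v6_10277_0) and KCNQ1 (dd_Smed_v6_10387_0) and the cation channel TRPM3 (dd_Smed_v6_10717_0) were lower and had 11, 2 and 2 UMIs in neurons. The call of KCNN2 was lost with DESeq2 (-1.12, adjusted p = 0.144).

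In the vesicle and synapse list, 7 of 14 tested contigs were higher, 2 lower and 5 not called, with a median of 0.66. SYTL3 (dd_Smed_v6_10375_0), which tethers secretory vesicles, was at 81.0, 112, 88.8 and 101 CPM outside 6 hpa against at most 12 CPM in other cells (log2 fold change 3.04, SE 0.22). The postsynaptic scaffold SHANK3 (dd_Smed_v6_10116_0) was at 107.5, 47.0, 82.1 and 52.9 CPM against at most 10.2 CPM (2.62, SE 0.24). NOS1AP (dd_Smed_v6_1082_0), an adaptor of neuronal nitric oxide synthase, was higher at 3.66 (SE 0.40). SYNJ1 (dd_Smed_v6_1019_0), a lipid phosphatase of vesicle recycling, was abundant in neurons at 207 CPM but also in other cells at 134 CPM (0.11, SE 0.20), and was called higher only with RLE size factors (0.47). Lower values were found for RAB27B (dd_Smed_v6_10266_0), a GTPase of vesicle docking with 1 UMI in neurons, and for the adhesion receptor ADGRL3 (dd_Smed_v6_10094_0) at -0.85 (SE 0.29), whose call was lost in 7 alternatives, among them without the 0 hpa library (-0.66) and without 18 hpa anterior replicate 1 (-0.70).

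Among 7 axon guidance and adhesion contigs, 3 were higher, 1 lower and 3 not called, with a median of 0.19. PTPRD (dd_Smed_v6_10176_0), a receptor phosphatase that organizes synapses, was at 251 CPM at 0 hpa, 175 and 224 CPM in the 18 hpa anterior libraries, 193 CPM at the posterior wound and 0 UMIs at 6 hpa. Other cells held 6.17 to 19.8 CPM, and the log2 fold change was 3.29 (SE 0.20). The protocadherins PCDH9 (dd_Smed_v6_10495_0) and PCDH1 (dd_Smed_v6_10467_0), cell adhesion proteins, were higher at 3.0 (SE 0.31) and 1.23 (SE 0.23). The netrin receptors UNC5B (dd_Smed_v6_10380_0) and UNC5D (dd_Smed_v6_10585_0) were not called, and UNC5C (dd_Smed_v6_10730_0) was lower at -1.13 (SE 0.30), a call lost with DESeq2. UNC5B was called higher with RLE size factors at 0.55.

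For transcription factors, 6 of 10 were higher, 2 lower and 2 not called, with a median of 1.09. ZEB1 (dd_Smed_v6_10038_0), a zinc finger repressor, had the largest fold change at 2.91 (SE 0.30). It was at 21.8 CPM at 0 hpa, 61.7 and 64.4 CPM in the 18 hpa anterior libraries and 34.4 CPM at the posterior wound, with at most 6.28 CPM in other cells. The SOX family factor SOX5 (dd_Smed_v6_10201_0) was higher at 1.70 (SE 0.27), the zinc finger factor BCL11A (dd_Smed_v6_10320_0) at 1.59 (SE 0.24) and the homeobox factor GSC (dd_Smed_v6_10184_0) at 1.53 (SE 0.21). FOXA1 (dd_Smed_v6_10718_0), a forkhead factor, was higher at 1.24 (SE 0.36), but 28 of its 40 UMIs came from 1 group of cells described below and the call was lost without 18 hpa anterior replicate 1 (0.52). OVOL1 (dd_Smed_v6_10673_0) was called higher at 0.93 (SE 0.30), but its level exceeded that of other cells in 2 of 5 libraries only. It was at 46.8 against 6.08 CPM at 0 hpa and at 37.0 against 8.19 CPM at the posterior wound, with 13.2 against 13.8 CPM and 15.5 against 18.4 CPM in the anterior libraries and 0 UMIs at 6 hpa. Its call was lost in 5 alternatives, among them DESeq2 (adjusted p = 0.0984), without the 0 hpa library (0.25) and without the posterior library (0.69). SNAI2 (dd_Smed_v6_10216_0) and OSR1 (dd_Smed_v6_10039_0), both zinc finger factors, were lower.

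Contigs of cilium assembly and motility were the list with the most members called higher. Of 20 tested, 17 were higher, 1 lower and 2 not called, with a median of 1.95, and the count was 17 with DESeq2, 18 with RLE size factors and 16 of 20 without 6 hpa. The dynein component WDR60 (dd_Smed_v6_10032_0) was at 207 CPM at 0 hpa, 95.5 and 111 CPM in the 18 hpa anterior libraries and 169 CPM at the posterior wound, with 0 UMIs at 6 hpa. Its level in other cells was at most 13.9 CPM (log2 fold change 3.10, SE 0.20). FOXJ1 (dd_Smed_v6_10152_0), a regulator of motile cilium genes, was at 99.7, 61.7, 73.2 and 119 CPM against at most 11.8 CPM (2.60, SE 0.23). The axonemal dynein DNAH10 (dd_Smed_v6_10425_0) was higher at 3.03 (SE 0.24) and CFAP43 (dd_Smed_v6_10271_0), another protein of motile cilia, at 2.92 (SE 0.25). IFT172 (dd_Smed_v6_10638_0), of intraflagellar transport in motile and sensory cilia alike, was higher at 1.70 (SE 0.23). The list also marks ciliated cells of other tissues, and the part such cells had in these values was not tested. LRRC23 (dd_Smed_v6_10554_0) was the member called lower, at -0.94 (SE 0.28), a call lost with RLE size factors and with DESeq2.

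**Figure D3:**
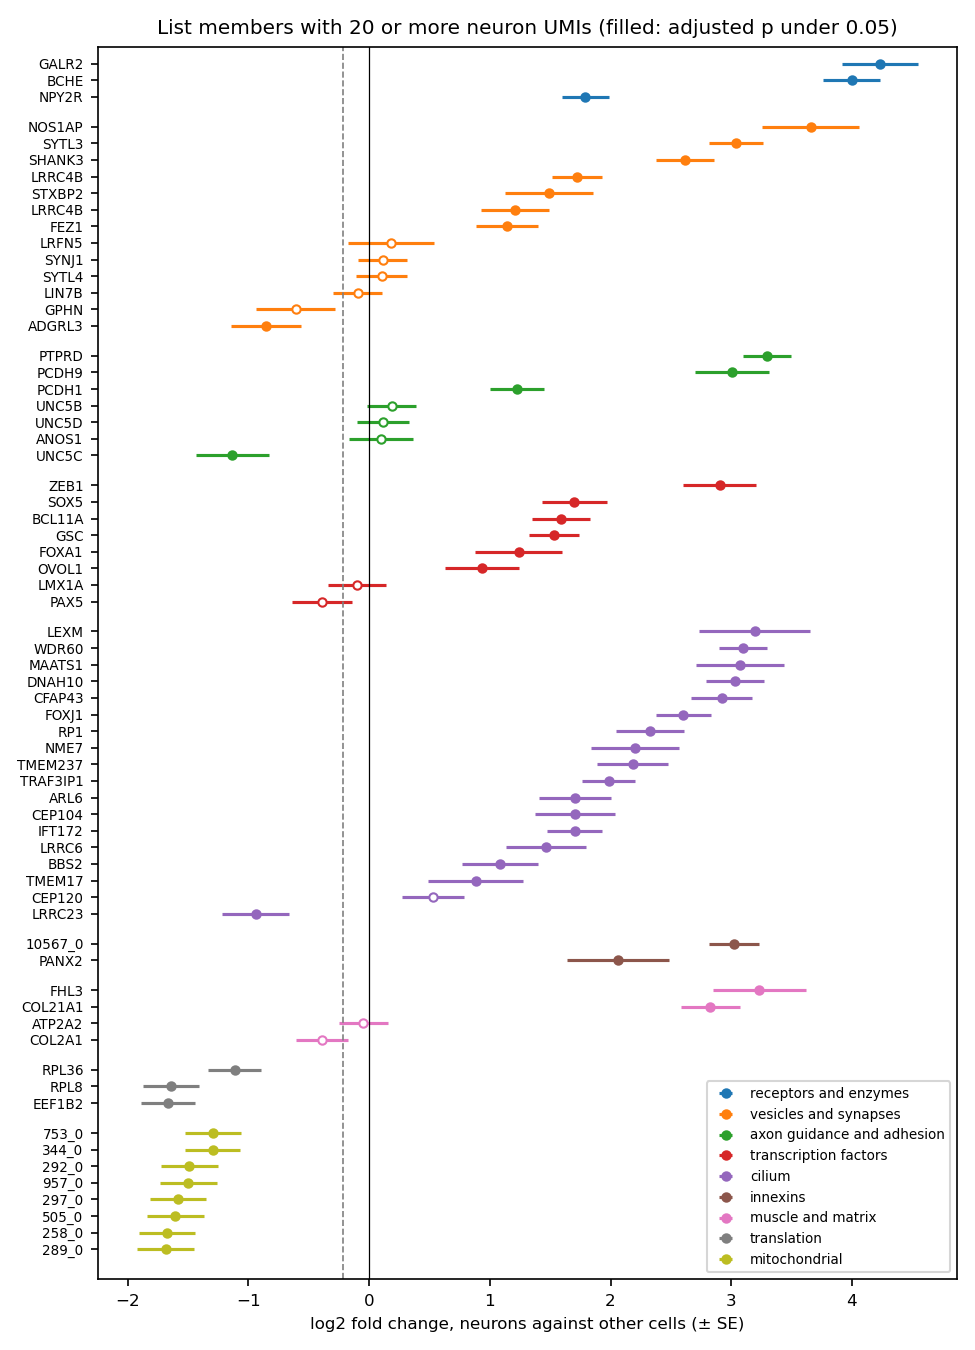
Log2 fold change of neurons against other cells (x axis, ± SE) for list members with 20 or more neuron UMIs (y axis), coloured by list. Filled points were called at an adjusted p under 0.05, hollow points were not, and the dashed line is the median of all contigs (-0.22). Receptor members and cilium members other than LRRC23 lie to the right, and mitochondrial and translation members to the left.

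Lists for other tissues and for general cell functions gave mixed or lower values. Of 7 muscle and matrix contigs, 2 were higher, 2 lower and 3 not called (median -0.39, and -0.03 with RLE size factors). Higher were COL21A1 (dd_Smed_v6_10785_0), a collagen, at 2.83 (SE 0.24) and FHL3 (dd_Smed_v6_10293_0), a LIM domain protein, at 3.23 (SE 0.38). HSPG2 (dd_Smed_v6_1054_0), a basement membrane proteoglycan, was at 8.32 CPM in neurons and 145 CPM in other cells. CAV3 (dd_Smed_v6_10578_0), a caveolin of muscle, had 0 UMIs. The summed list stood at 403 CPM in neurons and 402 CPM in other cells. Gap junction contigs included 1 of the clearest neuron contigs, the innexin dd_Smed_v6_10567_0, at 153, 103, 124 and 130 CPM outside 6 hpa and 3.08 to 15.2 CPM in other cells (3.02, SE 0.21). Of the 3 tested, PANX2 (dd_Smed_v6_10766_0) was also higher and dd_Smed_v6_10061_0 was lower. In a stress and survival list of 12, 2 were higher, 4 lower and 6 not called (median -0.11, and 0.25 with RLE size factors). The small heat shock protein HSPB1 (dd_Smed_v6_1039_0) was its most abundant member at 921 CPM and was not called (0.10, SE 0.22).

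The mitochondrial and translation contigs that were tested were all lower. The translation list had 13 contigs, of which 5 were in the count matrices and 3 had enough UMIs to be tested. All 8 mitochondrial contigs were called lower, with a median of -1.54, and all 3 tested translation contigs, the ribosomal proteins RPL36 (dd_Smed_v6_105_0) and RPL8 (dd_Smed_v6_108_0) and the elongation factor EEF1B2 (dd_Smed_v6_1045_0), with a median of -1.64. The direction held with RLE size factors and with DESeq2. By library, the median neuron carried 2.15 to 5.26% of its UMIs on mitochondrial contigs and the median other cell 9.19 to 13%, without overlap. The difference was -6.46 percentage points on average (SD 1.30, n = 5 libraries), lower in 5 of 5, with p = 0.0625 in an exact two-sided sign-flip test, the smallest p that 5 libraries allow. Against other cells matched in UMIs the difference was -5.57 points (SD 1.42).

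Clustering of the 782 neurons outside 6 hpa gave 14 sub-clusters of 20 to 129 cells, each with cells of all 4 libraries. They are called by number, since the clusters were made from the same contigs that describe them and nothing between them was tested. The sub-clusters were divided at 1000 CPM of the cilium list, so the groups cannot overlap in it. Sub-clusters 3, 4, 6, 7, 12 and 14, with 312 neurons, held 1158 to 2449 CPM of the list, and the other 8, with 470 neurons, held 80.5 to 295 CPM, so no sub-cluster lay between 295 and 1158 CPM. The separation was found in each library, at 2176 against 261 CPM at 0 hpa, 1769 against 156 CPM and 2039 against 149 CPM in the 18 hpa anterior libraries and 2237 against 164 CPM at the posterior wound. Of 312 UMIs of WDR60, all but 23 were in the cilium-rich sub-clusters, as were 141 of 143 of CFAP43 and 157 of 175 of IFT172. FOXJ1 was less restricted, with 133 UMIs in them and 51 in the others. These contigs belong to the list that drew the groups, so their shares and the separation by library describe that choice. Median depth was 2273 UMIs in the cilium-rich and 2651 UMIs in the other neurons.

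**Figure D4:**
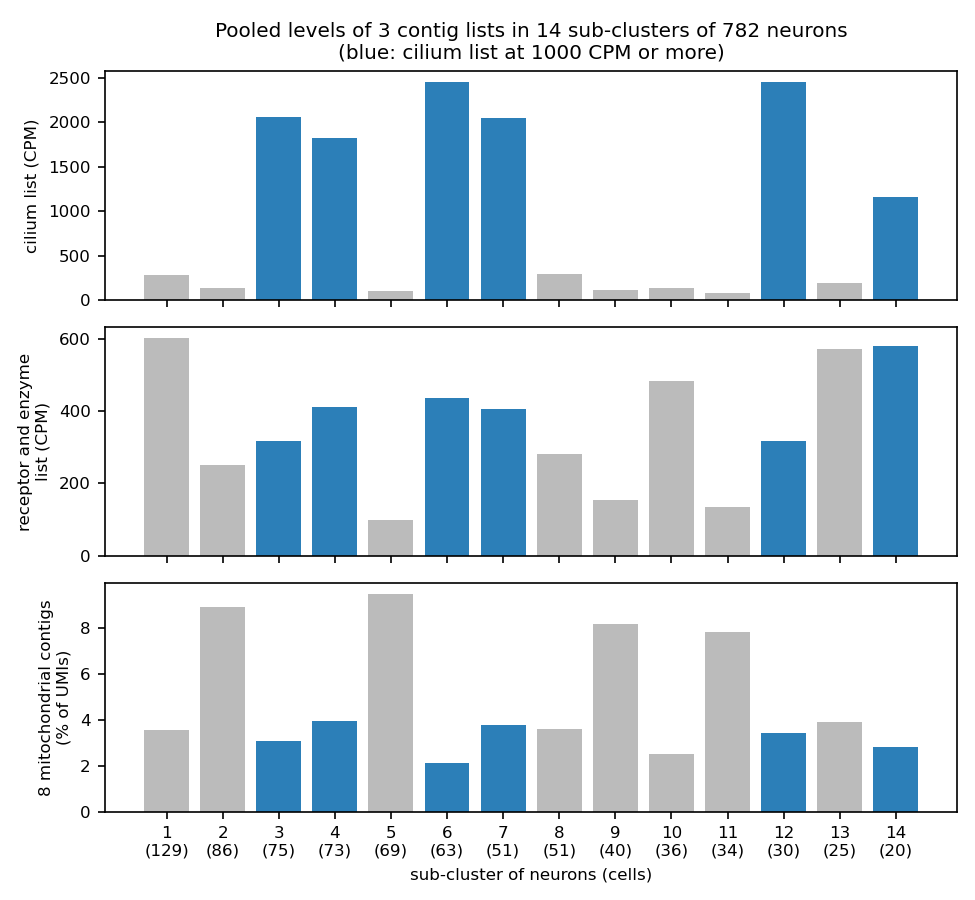
Pooled level of the cilium list, of the receptor and enzyme list (both CPM) and of the 8 mitochondrial contigs (% of UMIs) in each of the 14 sub-clusters (x axis, with the number of neurons). Bars in blue are the 6 sub-clusters with 1000 CPM or more of the cilium list, which range from 1158 to 2449 CPM against at most 295 CPM in the others.

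Cilium-rich neurons also held contigs of transmission. SLC17A6 stood at 381 CPM (exact 95% Poisson interval 339 to 427) in them and at 172 CPM (150 to 195) in the other neurons, and SHANK3 at 165 and 20.5 CPM. GLRA2 was at 347 and 222 CPM. Values in the opposite order were found for GABRB2, at 54.6 and 130 CPM, for CACNA1C, at 25.4 and 66.7 CPM, and for ZEB1, which had 0 of its 98 UMIs in the cilium-rich neurons. PTPRD, at 216 and 208 CPM, and VAMP2, at 165 and 159 CPM, were level as pooled, with intervals that overlapped. For PTPRD, 184 of the 284 UMIs in the other neurons lay in sub-cluster 1, so its level was not even over them. GLRA2, SLC17A6, GABRB2 and VAMP2 belong to the rule, which bears on their levels.

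Several sub-clusters were led by contigs that most of their cells shared. Sub-cluster 3 (75 neurons) was led by dd_Smed_v6_16581_0, at 1274 CPM in 94.7% of its cells and 8.71 CPM in the other neurons. In sub-cluster 6 (63 neurons) the leading contig was dd_Smed_v6_15610_0, with 4461 against 79.0 CPM. Sub-cluster 10 (36 neurons) was led by dd_Smed_v6_3069_0 and dd_Smed_v6_2163_0, each found in 100% of its cells. It also held 127 of the 284 UMIs of TRAF6 (dd_Smed_v6_10407_0), a signalling ubiquitin ligase. Another contig with the name TRAF6 (dd_Smed_v6_10424_0) had 147 UMIs, and its largest part, 23 UMIs, lay in sub-cluster 1. Sub-cluster 12 (30 neurons) was led by dd_Smed_v6_28015_0, with 2010 against 5.76 CPM, and sub-cluster 14 (20 neurons) by dd_Smed_v6_5762_0 and dd_Smed_v6_4545_0, which also led the neurons as a whole without 6 hpa. Sub-cluster 1, the largest with 129 neurons, held 67 of the 118 UMIs of GALR2, 184 of the 454 of PTPRD and 36 of the 70 of the paired box factor PAX5 (dd_Smed_v6_10219_0), and its receptor list stood highest at 602 CPM. Its first contig, dd_Smed_v6_4039_0, rested on 1 cell that held all of its UMIs there, and the same was true of leading contigs in sub-clusters 2, 4, 5 and 13.

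A set of 4 sub-clusters, picked after their values were seen, lay closer to other cells in mitochondrial share. Sub-clusters 2, 5, 9 and 11, with 229 neurons, carried 7.81 to 9.47% of their UMIs on the mitochondrial contigs, against 2.12 to 3.94% in the other 10 and 11.1% in cells that were not neurons. Their receptor list stood at 99.5 to 252 CPM, and at 282 to 602 CPM in the other 10 sub-clusters. In sub-cluster 9 (40 neurons) the muscle and matrix list reached 1295 CPM, the highest of any, and 154 of the 158 neuron UMIs of COL2A1 (dd_Smed_v6_1070_0), a fibrillar collagen, lay there. It was led by dd_Smed_v6_2337_0 and dd_Smed_v6_2197_0, each in 100% of its cells. Sub-cluster 11 (34 neurons) was led by dd_Smed_v6_3312_0, with 7292 against 0.981 CPM, and held 37 of the 98 UMIs of ZEB1. Sub-cluster 5 held 67.5% of the neuron UMIs of dd_Smed_v6_659_0. Whether these cells are neurons, other cells with free neuronal RNA or doublets was not tested. In barcodes of 10 to 99 UMIs, which hold mostly free RNA, dd_Smed_v6_1566_0 was at 90.4 CPM.

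Neurons at 0 hpa and at 18 hpa anterior wounds were compared by size, since 0 hpa had 1 library. A contig counted as different when both 18 hpa anterior libraries lay at least 3-fold on the same side of 0 hpa with Poisson intervals apart. Of 5216 contigs with enough UMIs, 65 (1.25%) were higher at 18 hpa and 103 (1.97%) lower. These counts rested on having both replicates, and were 127 and 208 with replicate 1 alone and 90 and 270 with replicate 2 alone. The most extreme was dd_Smed_v6_2223_0, at 3.12 CPM at 0 hpa, 6448 and 7476 CPM at the anterior and 13080 CPM at the posterior wound, with 0 UMIs at 6 hpa. Its UMIs came from 14 neurons in all, and 99.6% of them lay in sub-cluster 8, so a handful of cells carried the difference. In other cells it was at 84.7 CPM at 0 hpa and at 5.35 and 18.2 CPM at the 18 hpa anterior wounds, the opposite order.

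Many of the contigs that were higher at 18 hpa belonged to 1 sub-cluster. Of the 65, 42 had at least 50% of their neuron UMIs in a single sub-cluster, and for 32 it was sub-cluster 9, which held 4 neurons at 0 hpa and 15, 12 and 9 in the 18 hpa libraries. An example is dd_Smed_v6_11635_0, with 0 UMIs at 0 hpa, 73.5 and 62.1 CPM at the anterior and 55.5 CPM at the posterior wound, and 83.8% of its UMIs in sub-cluster 9. Against a floor of 3 UMIs at 0 hpa, it was at least 13.3-fold higher. It was also at 14.3 CPM at 0 hpa and at 72.3 and 52.2 CPM at 18 hpa in other cells. In dd_Smed_v6_223_0, the values were 10.9, 157 and 124 CPM, with 101 CPM at the posterior wound. Contig dd_Smed_v6_586_0 was at 3.12, 45.5 and 77.7 CPM, with 31.7 CPM at the posterior wound, and 98.8% of its UMIs lay in sub-cluster 11. The part of the makeup of the neurons in these differences was not tested. Sub-clusters 9 and 11 are among those described above as closer to other cells in mitochondrial share, and sub-cluster 9 was highest in the muscle and matrix list. Whether their cells are neurons was not tested, so these contigs may not describe neurons. In other cells, both anterior libraries lay at least 3-fold above 0 hpa for 4 of the 65.

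**Figure D5:**
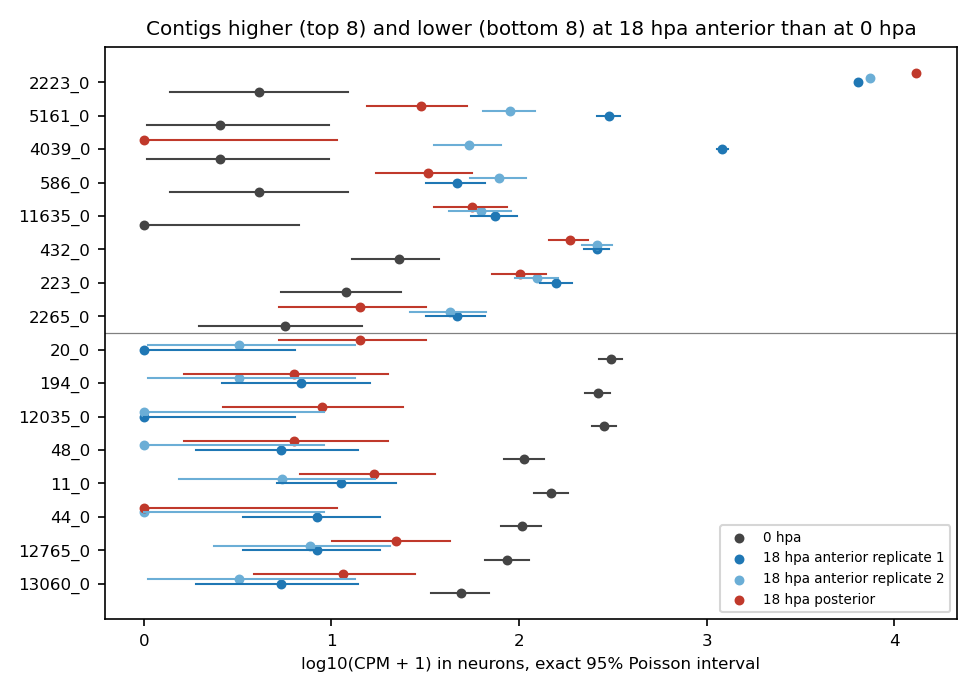
Level in neurons (x axis, log10 of CPM + 1, with exact 95% Poisson intervals) of the 8 contigs named as higher and the 8 named as lower at 18 hpa anterior than at 0 hpa (y axis), in 4 libraries (6 hpa is not drawn). The 18 hpa anterior replicates lie together on one side of 0 hpa, which is how the contigs were chosen.

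Among the 103 lower contigs, those found in many neurons were few. The contig dd_Smed_v6_12765_0 was at 85.7 CPM in 31 neurons at 0 hpa, at 7.35 and 6.66 CPM at the 18 hpa anterior and at 21.2 CPM at the posterior wound, and 74.6% of its UMIs lay in sub-cluster 3. That sub-cluster held 42 neurons at 0 hpa and 10, 12 and 11 at 18 hpa, and was the main one for 22 of the 103. For dd_Smed_v6_12035_0, at 284 CPM at 0 hpa and 0 UMIs at both anterior wounds, the UMIs came from 6 neurons. In dd_Smed_v6_20_0, dd_Smed_v6_194_0, dd_Smed_v6_48_0 and dd_Smed_v6_44_0, 1 neuron at 0 hpa held 93.4 to 100% of the 0 hpa UMIs, so these values describe that cell. In other cells, both anterior libraries lay at least 3-fold below 0 hpa for 5 of the 103. The cilium list as a whole was at 1283 CPM (interval 1197 to 1373) in neurons at 0 hpa, 616 CPM (558 to 677.4) and 661 CPM (588 to 741) at the anterior wounds and 870 CPM (779 to 970) at the posterior wound. The intervals of the anterior replicates overlapped each other and neither overlapped 0 hpa nor the posterior wound. They cover counting error of pooled UMIs only, and leave out the spread between cells and between libraries. With 1 library each at 0 hpa and at the posterior wound, no difference of time or wound side was tested. Cilium-rich sub-clusters held 123 of 234 neurons at 0 hpa, 69 of 217 and 72 of 203 at the anterior wounds and 48 of 128 at the posterior wound, and the part of this makeup in the list's level was not tested.

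Neurons at posterior-facing wounds differed from both anterior libraries at fewer contigs. Of 4517, 14 (0.31%) were higher at the posterior wound and 28 (0.62%) were lower, and leaving out the cell with the most UMIs of each contig brought the first count to 7. With anterior replicate 1 alone the counts were 27 and 71, and with replicate 2 alone 53 and 52. Contigs spread over many cells included dd_Smed_v6_10573_0, at 119 CPM in 22 neurons at the posterior wound and at 27.9 and 8.88 CPM at the anterior wounds, with 99.7 CPM at 0 hpa. Likewise dd_Smed_v6_17551_0 was at 167 CPM against 38.2 and 33.3 CPM, with 122 CPM at 0 hpa and 77.5% of its UMIs in the cilium-rich sub-cluster 6. Both stood at the posterior wound near their 0 hpa level. In the lower direction dd_Smed_v6_4123_0 had 1 UMI at the posterior wound (2.65 CPM) and 58.8 and 42.2 CPM at the anterior wounds, from 38 and 17 neurons, with 46.8 CPM at 0 hpa. The first-ranked dd_Smed_v6_13584_0 came from 1 neuron. With 1 posterior library, none of this separates wound side from library.

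The gene the study is about, *equinox* (dd_Smed_v6_20318_0), was at a like level in neurons and in other cells. It had 20 UMIs in 18 of 786 neurons (2.29%, exact 95% binomial interval 1.36 to 3.60), or 9.24 CPM, against 2.39% of other cells and 8.56 CPM, with a log2 fold change of 0.05 (SE 0.40, adjusted p = 0.92 by edgeR). By library it was at 12.5 CPM (8 UMIs, Poisson interval 5.38 to 24.6) at 0 hpa, 7.35 and 6.66 CPM at the 18 hpa anterior wounds and 10.6 CPM at the posterior wound, with 0 UMIs at 6 hpa. Other cells were at 1.86 CPM (1.30 to 2.57) at 0 hpa and at 8.71, 15.7 and 5.97 CPM at 18 hpa. Only at 0 hpa did the intervals of neurons and other cells lie apart in the direction of neurons, and 16 of the 20 UMIs lay in cilium-rich sub-clusters. The signalling ligand *bmp4* (dd_Smed_v6_17402_0) had 4 UMIs in 3 neurons (1.85 CPM) against 2.04 CPM in other cells, which was too few to show a difference (log2 fold change -0.69, SE 0.74).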

How the data were processed

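Per the labels and the study's methods, cells were captured on the 10x v3 platform, and the deposited matrices hold raw UMI counts per contig and barcode that the authors made with Cell Ranger. Replicate numbers of the 18 hpa anterior group are its 2 libraries. Genes are contigs with at least 1 UMI. Members and lists were chosen with earlier results of these data known. Sums of UMIs for each class in each library were fitted with edgeR 4.0.16 (quasi-likelihood, TMM, filterByExpr, library as block, Benjamini-Hochberg, threshold 0.05, R 4.3.3), and the script was tested on simulated data. Libraries are the replicates. The p-values of edgeR set the difference between neurons and other cells against a spread over libraries that is estimated with pooling across contigs. They therefore do not measure each contig's own spread over 5 libraries. For dd_Smed_v6_5762_0, with 0 neuron UMIs at 6 hpa, edgeR's adjusted p was 4.8e-65 with that library and 5.8e-15 without it. The 5 libraries differ in time, wound side and sort, and only the 18 hpa anterior group had 2. DESeq2 1.42.0, RLE factors, other cell filters, other cells matched in UMIs (5 per neuron), no block and leaving out each library were alternatives. Neurons were clustered with leidenalg 0.10.2 (1500 contigs, 11 components, scaled within library, resolution 1). The 4 neurons at 6 hpa were left out there, because scaling over 4 cells has no meaning. Named contigs were the 12 highest and 6 lowest fold changes with 100 UMIs and 1 direction in 5 libraries, list members with 20 neuron UMIs (others where a count needed them), the 8 most extreme per direction in time comparisons with 30 UMIs, and leading sub-cluster contigs.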

Additional observations from a re-analysis of the deposited data

Results flagged for a closer look

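Signals were found in barcodes and cells that the comparisons do not use. In barcodes of 10 to 99 UMIs, the neuron marker dd_Smed_v6_1566_0 was at 90.4 CPM, above the 40.8 CPM of cells not called neurons and the 1.63 CPM of cells above the epidermal limit. By library it ran from 18.2 CPM at 6 hpa to 176 CPM in 18 hpa anterior replicate 2. Above the limit of 2500 genes, 226 further cells met the marker rule, of which 71 were from 0 hpa, 92 and 17 from the 18 hpa anterior libraries, 46 from the posterior wound and 0 from 6 hpa.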

How the results depend on the processing

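Of 2077 values of 123 named contigs under alternatives, 2021 kept their direction and side of the threshold, 36 lost the call, 19 gained one and 1 turned. It was dd_Smed_v6_659_0, at 0.42 with 1 or more further contigs. The pooled share of neurons was 1.27% with 3 or more further contigs, 6.53% with 1 or more, 3.33% without the upper limit on genes, 5.71% under 10% mitochondrial UMIs and 0.377% with each cell thinned to 600 UMIs. Lower contigs numbered 2425 with DESeq2, 3441 with RLE size factors and 2927 with other cells matched in UMIs, and higher contigs stayed within 1.5 times of 4100. Leaving out a library gave 3677 to 4051 higher and 4370 to 5474 lower. With a fold of 2, 171 and 373 contigs were higher and lower at 18 hpa anterior than at 0 hpa, 24 were higher at 6 hpa and 50 and 46 were higher and lower at the posterior wound. Without the top cell of each contig, 7 were higher there. Leaving out an 18 hpa anterior library gave 90 to 127 and 208 to 270 contigs against 0 hpa, and 27 to 53 and 52 to 71 at the posterior wound. With 3 or more further contigs no neuron was left at 6 hpa. Leaving out the top cell, using each anterior library alone, naming contigs without 6 hpa and other cells without dd_Smed_v6_1566_0 were chosen after seeing the data. Neurons and other cells were paired by library, and without the library block 3059 contigs were higher and 3549 lower. No paired analysis was possible because the groups of time and wound side share fewer than 2 replicate numbers, so this holds for those comparisons only. Depth limits contigs at a few UMIs, above all at 6 hpa.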
